A study of Mus musculus with 16 samples.

Results

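The genes described here build and run mitosis. Their products condense chromosomes, drive entry into division, assemble the spindle, attach chromosomes at kinetochores, hold anaphase until attachment is complete and cut the dividing cell apart. The list held 44 genes chosen by symbol, and 43 of them had a probe set annotated to that symbol alone, out of 12393 such genes on the array. Ccnb1 had no such probe set and was not analysed here. Where a gene had several probe sets, the brightest on average over the 16 arrays was used. Expression was measured on Affymetrix M430A_2 arrays as log2 signal, so a difference of 1 is a doubling.

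The study profiled skin melanomas of 2 engineered mouse models and melanocytes isolated from mice. The iMet tumours (6 arrays) carried Tyr-rtTA, Tet-Met and Ink4a/Arf-/-, so that the Met receptor is switched on by tetracycline in cells using the tyrosinase promoter. The iHRAS* tumours (6 arrays, titled iRas) carried Tyr-rtTA, Tet-HRASV12G and Ink4a/Arf-/-, with an activated HRAS in place of Met. The melanocytes (4 arrays) carried no disease, and the labels used here name neither their genotype, strain nor culture. Loss of Ink4a/Arf was thus shared by both tumour groups and was not known for the melanocytes. The design set the models against each other as tumours able or not able to metastasize. Neither animal age nor time on tetracycline was given in the labels used here. The sample labels speak of isolated melanoma cells and the design text of RNA from skin tumours, and no label ties the arrays to separate animals. The p-values below therefore measure only how these arrays spread, which may be technical.

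Most mitotic genes are switched on together late in the cell cycle, after DNA replication. In resting cells the DREAM complex represses them, and in G2 the factors B-MYB and FOXM1 and the CCAAT-binding factor NF-Y activate them. The repressor is known to contact a short DNA element, the cell cycle genes homology region, that lies near the transcription start. In melanoma, mitoses counted under the microscope are a long-used sign of tumour growth, and Ki-67, the product of Mki67, is the usual stain for cycling cells.

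Several measures bear on the labels. The engineered gene Met averaged log2 9.47 ± 0.55 (SD) over the 6 iMet arrays, 6.94 ± 0.77 over the 6 iHRAS* arrays and 8.29 ± 0.89 over the 4 melanocyte arrays. In the arrays labelled melanocyte, Mitf, Tyr, Tyrp1, Dct and Kit lay under the 40th percentile of all signals (log2 6.21) on all 4 arrays, while Sox10 (mean 9.66), Pmel (6.70) and Slc45a2 (7.08) lay above it on all 4. The keratinocyte keratins Krt5 (mean 12.57) and Krt14 (mean 12.73) were high in the same arrays. Of the 12 keratinocyte markers measured, 8 or 9 lay above that percentile on each melanocyte array. Krt1 (mean 3.44), Cdh1 (3.77) and Epcam (1.63) were under it on all 4, and Krt15 was above it on 2. Of the 10 fibroblast markers, 8 to 10 lay above that percentile on each melanocyte array. Col1a1 (mean 12.60) and Postn (12.55) were high, while Lum (5.40) and Fap (5.93) were above it on 1 array each. Both tumour groups also held RNA of other cell types: all 13 macrophage markers measured were above that percentile on 6 of 6 iMet arrays, and 12 or 13 of them on each iHRAS* array. In tumour tissue, fewer dividing cells and less mitotic RNA per cell cannot be told apart.

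The mitotic genes were higher in iMet than in iHRAS* tumours almost without exception. Of the 42 members bright enough to test, 40 were higher in iMet tumours and 0 were lower at a limma adjusted p under 0.05, against a background of 11.2% of 8058 genes called higher and 9.70% called lower. The median difference over all 43 members was 1.20 on the log2 scale, where the median over all genes tested was 0.03. Every iMet array lay above every iHRAS* array for 27 of the 42 members, which 5.83% of all genes tested did, and 4.89% lay wholly below. The members not called higher were Bub3, Pttg1 and the untested Cdc25c, and each of these was also measured higher in iMet tumours. Of 34 further probe sets for these genes, 19 had a mean above the 40th percentile, and all 19 were higher in iMet tumours. Of the 40 members called, 31 lay above that percentile on all 12 tumour arrays, and 3 (Kif23, Cenpe and Nek2) had an iHRAS* mean below it.

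**Figure D1:**
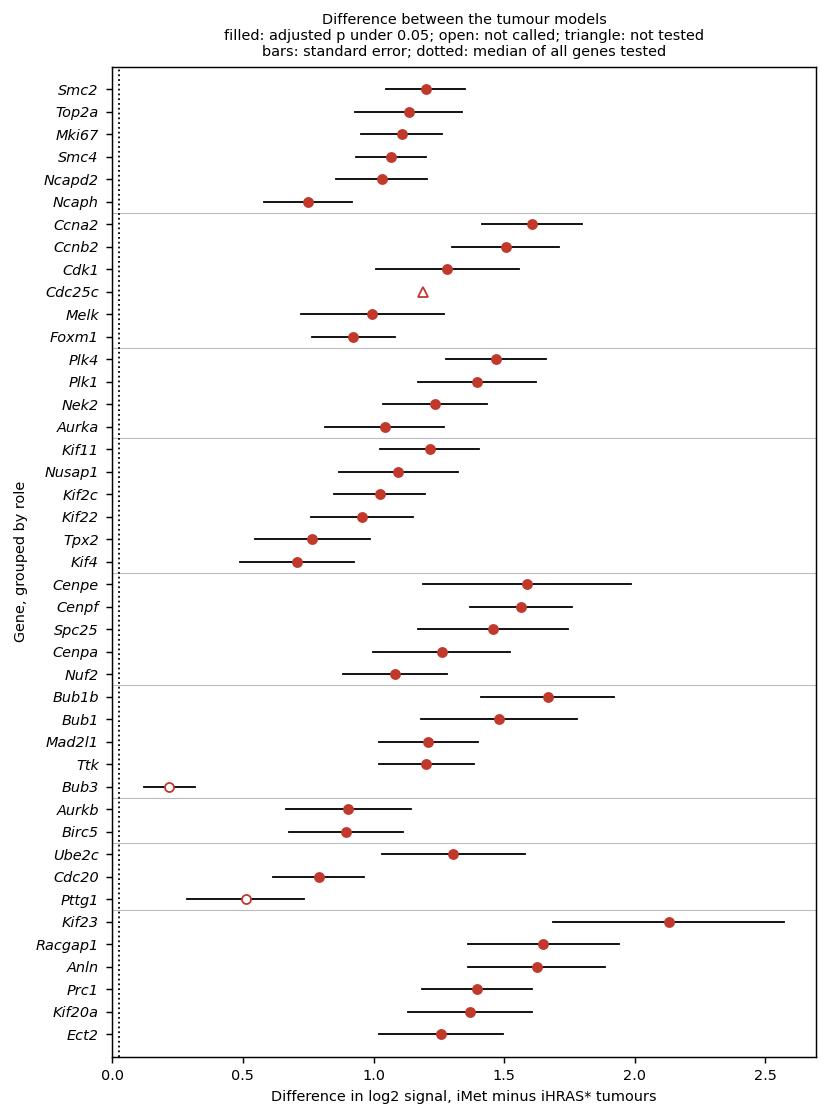
Difference in log2 signal, iMet minus iHRAS* tumours (x axis), for each mitotic gene (y axis, grouped by role), with bars for the standard error (n = 6 arrays per group) and open symbols for genes not called. All 43 values lie right of 0, from 0.22 for Bub3 to 2.13 for Kif23.

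The promoters of these genes were read for the DNA elements named above, since the genes moved together. RefSeq promoters (build GRCm38.p6, 250 bases before to 50 after the start) matched 36 of the 43 members. The letters TTTGAA, the core of the cell cycle genes homology region, were found on either strand in 25 of the 36 (69.4%), against 20.2% of all 27025 genes of that table. CCAAT, on either strand, was found in 26 of the 36 (72.2%), against 41.1% of all genes. Both were present in 23 (63.9%), against 7.97% of all genes and 5.46% of the 6543 genes with a promoter that were tested between the tumour models. Among 62 mitotic genes outside the list, 20 (32.3%) had TTTGAA and 13 (21.0%) had both. In 22 members TTTGAA lay within 50 bases of a listed start, which was not counted over all genes, and no TTTGAA overlapped a CCAAT. The members with both had a median iMet minus iHRAS* difference of 1.26 and the 13 others one of 1.10. These are letter matches, with no measurement of binding. The windows below run from 120 bases before to 30 after the start, 5′ to 3′ along the gene, with TTTGAA and CCAAT, or their reverse complements TTCAAA and ATTGG, in capitals. They belong to the 6 called members with both matches and the largest differences, and to Bub3, which was added after its values were seen because it moved least.
Kif23, chr9:61946770-61946919, - strand: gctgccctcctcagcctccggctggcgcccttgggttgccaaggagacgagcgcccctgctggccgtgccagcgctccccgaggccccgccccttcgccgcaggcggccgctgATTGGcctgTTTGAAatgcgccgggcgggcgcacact
Bub1b, chr2:118598091-118598240, + strand: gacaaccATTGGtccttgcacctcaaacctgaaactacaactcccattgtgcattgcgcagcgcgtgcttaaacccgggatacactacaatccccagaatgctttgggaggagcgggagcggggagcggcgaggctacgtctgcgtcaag
Racgap1, chr15:99651627-99651776, - strand: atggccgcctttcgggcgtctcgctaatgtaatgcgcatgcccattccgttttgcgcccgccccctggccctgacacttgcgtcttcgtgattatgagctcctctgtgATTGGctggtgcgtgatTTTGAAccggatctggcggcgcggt
Cenpf, chr1:189688057-189688206, - strand: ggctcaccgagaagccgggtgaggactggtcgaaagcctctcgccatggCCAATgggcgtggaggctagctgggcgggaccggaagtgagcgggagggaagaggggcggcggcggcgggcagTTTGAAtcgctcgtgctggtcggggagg
Ccnb2, chr9:70421525-70421674, - strand: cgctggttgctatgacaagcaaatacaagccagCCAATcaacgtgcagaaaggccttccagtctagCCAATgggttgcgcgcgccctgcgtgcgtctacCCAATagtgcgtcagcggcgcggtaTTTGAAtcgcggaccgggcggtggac
Spc25, chr2:69206184-69206333, - strand: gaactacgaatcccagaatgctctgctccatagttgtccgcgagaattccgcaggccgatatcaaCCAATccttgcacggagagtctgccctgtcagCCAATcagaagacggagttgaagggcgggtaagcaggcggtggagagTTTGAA
Bub3, chr7:131560250-131560399, + strand: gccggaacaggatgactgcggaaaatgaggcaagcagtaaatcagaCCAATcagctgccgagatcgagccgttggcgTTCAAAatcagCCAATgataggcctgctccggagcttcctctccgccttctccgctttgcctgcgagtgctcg
Kif23, Racgap1 and Cenpf each show TTTGAA within 6 bases after the start, and Ccnb2 shows 3 CCAAT boxes before it. The TTTGAA of Bub1b begins 41 bases after the start, beyond the window shown. Bub3 carries both kinds of match as well, with its TTTGAA at -43 from the start shown and at -167 from its other listed start.

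Cytokinesis genes had the largest median difference of the role groups, 1.51. All 6 were higher in iMet tumours, with no overlap between the groups. Kif23, which with Racgap1 forms the centralspindlin complex that marks the cleavage plane, had log2 signals from 7.29 to 8.11 (median 7.74) in iMet tumours and from 3.74 to 6.50 (median 6.16) in iHRAS* tumours. The difference of 2.13 ± 0.44 (SE) passed the test (limma adjusted p = 0.0057). Only 2 of the 6 iHRAS* arrays lay above the 40th percentile, so Kif23 entered the test mainly through its iMet arrays, and the size of its difference is uncertain. That size rested partly on iHRAS* arrays 3 and 5, at 3.74 and 4.60, since the other 4 lay between 6.11 and 6.50. The 2 other Kif23 probe sets, too dim to test, differed by 0.58 and 1.75 in the same direction. Racgap1 itself was 3.14-fold higher (1.65 ± 0.29, adjusted p = 0.0023). Anln, whose product anillin anchors the contractile ring, ranged from 10.45 to 11.34 (median 10.88) in iMet tumours and from 8.24 to 10.08 (median 9.41) in iHRAS* tumours. That was a 3.08-fold difference (1.62 ± 0.26, adjusted p = 0.0014), again with every iMet array above. Prc1, which bundles the midzone microtubules, and Kif20a, a midzone motor, differed by 1.40 ± 0.21 and 1.37 ± 0.24. Ect2, the exchange factor that activates RhoA at the cell equator, had the smallest difference of the 6. Its signal ran from 7.37 to 8.28 (median 7.61) against 5.91 to 7.36 (median 6.27), a 2.39-fold difference (1.26 ± 0.24, adjusted p = 0.0034), with iHRAS* array 3 just under the lowest iMet array.

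Kinetochore genes came next, with a median difference of 1.46 and 5 of 5 called higher in iMet tumours. Cenpe, the kinesin that moves chromosomes to the spindle equator, spanned 5.86 to 7.16 (median 6.73) in iMet tumours and 3.83 to 6.35 (median 5.29) in iHRAS* tumours. The groups overlapped, and the difference of 1.59 ± 0.40 had a limma adjusted p of 0.0147. Only 1 iHRAS* array lay above the 40th percentile against 5 iMet arrays, which leaves the size of the Cenpe difference uncertain too. Cenpf, a large kinetochore and dynein-linked protein, was measured more tightly, at 9.10 to 9.64 (median 9.23) against 7.06 to 8.42 (median 7.76). It was 2.96-fold higher in iMet tumours (1.56 ± 0.20, adjusted p = 3.07e-04), with no overlap. Nuf2 and Spc25 are subunits of the Ndc80 complex, which grips microtubule ends. Spc25 differed by 1.46 ± 0.29, and Nuf2, the smallest of the group, read 7.73 to 8.68 (median 8.14) against 6.62 to 7.56 (median 7.02). The Nuf2 difference was 2.12-fold (1.08 ± 0.20, adjusted p = 0.0029). Cenpa, the histone H3 variant that marks centromeres, was 2.40-fold higher (1.26 ± 0.26, adjusted p = 0.0057), with overlapping groups.

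The spindle checkpoint split into 4 genes that were higher in iMet tumours and Bub3, which was not called. Bub1b encodes BubR1, a part of the complex that inhibits the anaphase-promoting complex, and had the largest difference. Its signals were 8.89 to 9.78 (median 9.16) in iMet tumours and 6.82 to 8.58 (median 7.57) in iHRAS* tumours, a 3.17-fold difference with no overlap (1.67 ± 0.26, limma adjusted p = 0.0011). The checkpoint kinases Bub1 and Ttk differed by 1.48 ± 0.30 and 1.20 ± 0.18, and Mad2l1, which captures Cdc20, by 1.21 ± 0.19. Bub3, the adaptor that brings Bub1 and BubR1 to kinetochores, was close to level: 10.70 to 11.07 (median 10.89) against 10.51 to 10.90 (median 10.65). The groups overlapped, and the difference of 0.22 ± 0.10 did not pass the test (adjusted p = 0.1316). Bub3 also had the smallest spread of the members, with an SD of 0.13 in each tumour group. On the values as deposited, without quantile scaling, Bub3 was called higher too (0.39, adjusted p = 0.0101).

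Genes of mitotic entry differed by a median of 1.24, and the 5 that could be tested were all higher in iMet tumours. Ccna2, cyclin A2, partners Cdk1 as cells enter mitosis. It read 10.06 to 10.87 (median 10.40) in iMet tumours and 8.06 to 9.16 (median 8.89) in iHRAS* tumours, a 3.05-fold difference (1.61 ± 0.19, limma adjusted p = 2.49e-04) and the smallest p among the members. Ccnb2, a B-type cyclin, followed at 9.40 to 10.12 (median 9.69) against 7.45 to 8.79 (median 8.31), which was 2.84-fold (1.51 ± 0.20, adjusted p = 5.11e-04). Cdk1, the kinase that both cyclins activate, was 2.43-fold higher (1.28 ± 0.27, adjusted p = 0.0064), with overlapping groups. The smallest difference in the group was that of Foxm1, the transcription factor of late cell cycle genes, at 8.25 to 8.85 (median 8.67) against 7.45 to 8.13 (median 7.53). It was 1.90-fold higher (0.92 ± 0.16, adjusted p = 0.0021), and the groups did not overlap. Melk, a kinase gene with a cell cycle pattern, was 1.99-fold higher (1.00 ± 0.27, adjusted p = 0.0219). Cdc25c, the phosphatase that releases Cdk1 from inhibition, was too dim for the test. Its signals were 5.48 to 6.80 (median 6.59) in iMet tumours and 4.40 to 6.48 (median 4.99) in iHRAS* tumours, with overlap. With no filter on dim genes its difference of 1.19 had an adjusted p of 0.0498.

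Among the centrosome kinases all 4 were higher in iMet tumours, by a median of 1.32. Plk4, the trigger of centriole duplication, led with 8.81 to 9.63 (median 8.95) against 7.13 to 8.20 (median 7.61). The groups were apart, and the difference was 2.77-fold (1.47 ± 0.19, limma adjusted p = 4.07e-04). Plk1, the kinase active from entry to cytokinesis, was 2.64-fold higher (1.40 ± 0.23, adjusted p = 0.0014), and Nek2, which helps centrosomes part, differed by 1.24 ± 0.20 (adjusted p = 0.0014), with 1 of 6 iHRAS* arrays above the 40th percentile. Aurka, the Aurora kinase of spindle poles, had the smallest difference, at 8.57 to 9.28 (median 8.68) against 7.24 to 8.67 (median 7.70). It was 2.06-fold higher (1.04 ± 0.23, adjusted p = 0.0073), with iHRAS* array 3 at 8.67 inside the iMet range.

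Spindle motors and microtubule proteins were higher in iMet tumours in 6 of 6 cases, by a median of 0.99. Kif11, the motor that pushes spindle poles apart, read 7.59 to 8.08 (median 7.76) in iMet tumours and 6.16 to 7.27 (median 6.42) in iHRAS* tumours, 2.32-fold higher without overlap (limma adjusted p = 0.0012). Kif2c, a microtubule-depolymerizing kinesin, and Nusap1, which stabilizes microtubules, also stood apart, at differences of 1.02 ± 0.17 and 1.10 ± 0.23. Kif22, a motor on chromosome arms, and Tpx2, the activator of Aurora A, overlapped between the models and differed by 0.96 ± 0.20 and 0.77 ± 0.22. Kif4, a chromosome-bound motor that acts with Prc1, had the smallest called difference of all members. Its signals were 8.00 to 8.73 (median 8.10) against 6.66 to 8.15 (median 7.45), 1.63-fold (0.71 ± 0.22, adjusted p = 0.0377), and this call was lost under 15 of the 23 other settings tried.

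The condensin and chromosome genes were higher in iMet tumours in 6 of 6 cases, by a median of 1.09. Smc2, a core ATPase of condensin, read 9.68 to 10.41 (median 9.99) in iMet tumours against 8.42 to 9.11 (median 8.79), a 2.30-fold difference without overlap (1.20 ± 0.15, limma adjusted p = 3.10e-04). Its partner Smc4 was 2.09-fold higher (1.07 ± 0.13, adjusted p = 3.06e-04), and the condensin I subunit Ncapd2 2.04-fold (1.03 ± 0.17, adjusted p = 0.0018). Ncaph, the subunit that closes the condensin I ring, differed least, at 8.52 to 9.15 (median 8.78) against 7.61 to 8.67 (median 8.05). Its 1.68-fold difference passed the test (0.75 ± 0.17, adjusted p = 0.0083) although iHRAS* array 3 overlapped the iMet range. Mki67 ranged from 9.94 to 10.58 (median 10.19) in iMet tumours and from 8.80 to 9.50 (median 9.08) in iHRAS* tumours, 2.16-fold (1.11 ± 0.16, adjusted p = 6.34e-04). Top2a, the topoisomerase that untangles sister chromatids, was 2.20-fold higher (1.14 ± 0.21, adjusted p = 0.0028). Neither Mki67 nor Top2a overlapped between the models.

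The smallest role groups held the chromosomal passenger genes and the ubiquitin genes of anaphase. Aurkb, the Aurora kinase that corrects faulty attachments, read 7.95 to 8.75 (median 8.28) in iMet tumours and 6.72 to 8.40 (median 7.41) in iHRAS* tumours, 1.87-fold higher (0.90 ± 0.24, limma adjusted p = 0.0189). Birc5, survivin, which binds Aurora B to the centromere, was 9.09 to 10.17 (median 9.59) against 8.18 to 9.27 (median 8.60), 1.86-fold (0.90 ± 0.22, adjusted p = 0.0126). Both overlapped between the models. Ube2c, the ubiquitin-conjugating enzyme of the anaphase-promoting complex, was 2.47-fold higher (1.31 ± 0.27, adjusted p = 0.0060), at 9.49 to 10.37 (median 9.88) against 7.54 to 9.53 (median 8.71). Cdc20, the activator of that complex, was 1.73-fold higher without overlap (0.79 ± 0.17, adjusted p = 0.0075). Pttg1, securin, the inhibitor of separase that this complex destroys, was not called. Its signals overlapped widely, at 10.08 to 10.61 (median 10.32) against 9.16 to 10.47 (median 9.88), with a difference of 0.51 ± 0.22 (adjusted p = 0.1236). The other Pttg1 probe sets, with means above the 40th percentile, differed by 0.77 and 0.89 in the same direction. Under 4 of the 23 other settings Pttg1 was called higher, among them the values as deposited (0.70, limma adjusted p = 0.0182).

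Within each group, single arrays stood high or low for most members at once. Averaged over the 43 genes, the log2 signal on iMet arrays 1 to 6 was 9.41, 8.85, 9.05, 9.19, 8.83 and 8.76. On iHRAS* arrays 1 to 6 it was 7.32, 7.83, 8.41, 7.85, 7.83 and 7.69. The lowest iMet array thus stood above the highest iHRAS* array. Array 1 of the iMet group was its highest for 34 members, iHRAS* array 3 the highest of its own for 38, and iHRAS* array 1 was the lowest of its group for 30. The median SD over the members was 0.31 in iMet tumours and 0.48 in iHRAS* tumours, where over all genes tested it was 0.26 and 0.32.

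**Figure D2:**
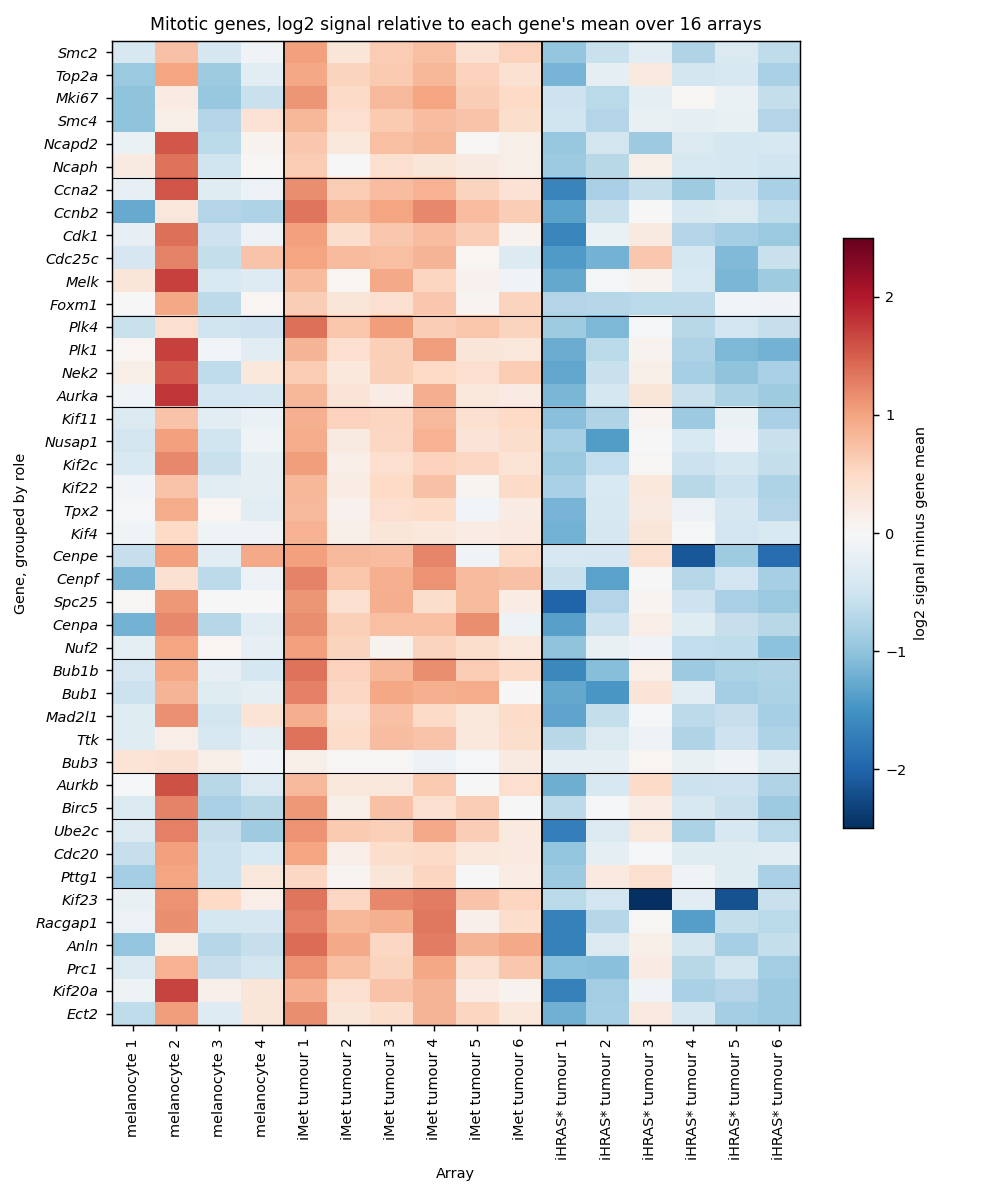
Log2 signal of each mitotic gene minus that gene's mean over the 16 arrays (colour), with genes in rows grouped by role and arrays in columns by group. The iMet columns are mostly above the gene means, the iHRAS* columns mostly below, and melanocyte array 2 stands above the other melanocyte arrays for 42 of 43 genes.

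The mitotic genes outside the list that were called all went in the same direction. Of 69 further genes tested in 5 lists, 33 were higher in iMet tumours, 0 lower and 36 not called. Over all genes tested, 11.2% were called higher and 9.70% lower. The median difference was 0.58 over 77 genes measured, 5 of them lower in iMet tumours, where all genes tested had a median of 0.03. Among other kinetochore genes 9 of 18 were higher, led by Cenpk (1.67 ± 0.22, limma adjusted p = 4.30e-04) and Ndc80 (1.77 ± 0.25, adjusted p = 6.80e-04), which code for a centromere subunit and for the partner of Nuf2. Other checkpoint, cohesion and anaphase genes gave 6 of 15, among them Cdc16, an anaphase-promoting complex subunit (0.67 ± 0.13), and Trip13, the ATPase that disassembles checkpoint complexes (1.12 ± 0.21). Of the other spindle and centrosome genes 8 of 17 were higher, with the minus-end motor Kifc1 at 1.16 ± 0.17 and the microtubule-binding Hmmr at 1.14 ± 0.17. Other entry and condensin genes gave 9 of 15, with the condensin I subunit Ncapg at 2.06 ± 0.22 and the Cdk subunit Cks2 at 1.37 ± 0.19. Of the 33 called, 10 had an iHRAS* mean under the 40th percentile. Cenpk, Ndc80, Kifc1 and Kif18a were under it on all 6 iHRAS* arrays and above it on all 6 iMet arrays. They therefore entered the test only through the group where they are high, as did Ncapg in the main, with 1 iHRAS* array above it. Their calls are thus not independent of the filter on dim genes, and the sizes of their differences are uncertain. Cep55, the abscission scaffold, was the 1 of 4 other cytokinesis genes called (1.13 ± 0.20). Genes of DNA replication were higher in 21 of 25 cases, 0 lower, with a median of 0.92 and examples in geminin, Gmnn (1.42 ± 0.17), and the helicase subunit Mcm4 (1.03 ± 0.13).

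Other cell types differed between the models as well. Keratinocyte markers averaged 4.54 to 9.09 on iMet arrays and 8.59 to 10.64 on iHRAS* arrays, and 4 of 11 tested were lower in iMet tumours. Over all genes tested, 9.70% were called lower and 11.2% higher. Endothelial markers averaged 7.71 to 9.43 against 6.91 to 8.00, with 8 of 12 higher. Macrophage markers averaged 10.74 to 11.42 against 9.09 to 10.92, with 2 of 13 higher (15.4%), near the share of all genes. Fibroblast markers averaged 11.14 to 11.97 against 11.13 to 12.32, with 1 higher and 1 lower of 10. Lymphocyte markers averaged 3.60 to 6.26 against 4.41 to 7.63, with 0 of 2 tested called. Melanocyte markers averaged 5.36 to 6.04 on iMet arrays and 5.95 to 7.81 on iHRAS* arrays, 2 of 5 tested were lower in iMet tumours, and Sox10 had means of 6.90 and 10.16. Of the red blood cell markers, Alas2 had means of 9.36 in iMet and 6.04 in iHRAS* tumours, while the globin gene Hba-a1 was under the 40th percentile on all 12 tumour arrays. No keratinocyte marker was above the 40th percentile on iMet array 4, while 10 were on iMet arrays 2, 3 and 6. The keratinocyte average on iMet arrays 1 to 6 was 4.61, 9.09, 7.80, 4.54, 6.42 and 9.08, and arrays 1 and 4, the lowest, had the highest mitotic means of the group. When the array averages of keratinocyte and of endothelial markers were added to the fit, the median member difference was 1.07 and 5 members remained called higher (Smc2, Smc4, Ccna2, Nek2 and Mad2l1), where 0.670% of all genes were called higher. The 2 models shared only part of the marker ranges, 8.59 to 9.09 for keratinocyte and 7.71 to 8.00 for endothelial averages. That fit therefore separates marker level from group only in part, and the part of other cell types in the difference was not tested.

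Hybridization controls spiked into each sample also differed on the deposited values. The mean bioB signal was 8.83 ± 0.17 (SD, n = 6) on iMet arrays and 7.84 ± 0.28 (n = 6) on iHRAS* arrays, and that of bioC 9.80 ± 0.16 against 9.13 ± 0.25. The brighter controls bioD (11.51 against 11.53) and cre (13.52 against 13.41) were closer. On melanocyte arrays bioB was 8.80 ± 0.18 (n = 4) and bioC 9.78 ± 0.15, so the iHRAS* arrays stood below both other groups. The part of these controls' shift in the differences of iHRAS* tumours from iMet tumours or from melanocytes was not tested. The 3′ minus 5′ signal of the beta-actin control probe sets averaged 0.32 on iHRAS* arrays, 0.15 on iMet arrays and -0.01 on melanocyte arrays. It was 1.12 on iHRAS* array 4 and at most 0.30 on the other arrays. For Gapdh the means were -0.11, -0.29 and -0.28, with 0.34 on iHRAS* array 4. The part of these 3′ minus 5′ measures in the differences was not tested. Scan dates and batches were not given in the sources used here.

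Set against melanocytes, the iMet tumours were higher for part of the list. Of 43 members tested, 12 were higher and 0 lower by limma at an adjusted p under 0.05, against a background of 16.4% of 8651 genes called higher and 18.7% called lower. The median member difference was 0.50, where the median over all genes tested was -0.08. Each of the 12 calls was lost under at least 1 alternative, and 9 of them were lost under alternatives other than the marker averages. Without melanocyte arrays 1 and 3, 4 members were called (13.7% of all genes higher), with a median of 0.11. With the marker averages in the fit, 0 members were called (0.0809% of all genes higher). Endothelial averages were 3.92 to 4.94 on melanocyte arrays and 7.71 to 9.43 on iMet arrays. They did not overlap, so that fit cannot separate marker level from group. The 12 were Mki67, Top2a, Smc2 and Smc4 of the chromosome group, Ccnb2, Plk4, Kif11, Cenpf, Bub1b, Ttk, Prc1 and Anln. Every iMet array lay above every melanocyte array for 7 members, 16.3% of the list, where 12.6% of all genes did so and 15.0% lay wholly below.

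Ccnb2 gained the most. Its melanocyte signals were 7.53, 9.06, 8.05 and 8.01, all below the lowest iMet value of 9.40, for a 2.99-fold difference (1.58 ± 0.28, limma adjusted p = 5.52e-04). Anln read 8.94, 10.08, 9.22 and 9.35 in melanocytes, again all below the iMet minimum, and was 2.88-fold higher (1.53 ± 0.30, adjusted p = 0.0013). Mki67, the proliferation marker, read 8.47, 9.67, 8.52 and 8.92, and was 2.50-fold higher in iMet tumours (1.32 ± 0.22, adjusted p = 4.26e-04). For Cenpf the melanocyte values were 7.26, 8.79, 7.74 and 8.26 and the difference 2.46-fold (1.30 ± 0.27, adjusted p = 0.0021). These 4 genes and Plk4, Smc4 and Ttk made up the 7 without overlap. At the other end, condensin's Ncaph (8.75, 9.88, 8.02 and 8.55 in melanocytes) differed from iMet tumours by 0.00 ± 0.28, and Kif20a (7.12, 8.95, 7.39 and 7.56) by 0.02 ± 0.34. Melk (7.52, 8.92, 6.84 and 6.90) differed by 0.06 ± 0.39, and Bub3 (11.20, 11.23, 10.99 and 10.78) by -0.15 ± 0.12. None of these 4 passed the test.

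The iHRAS* tumours fell below melanocytes for 10 of the 43 members and rose above them for 0. In that comparison 21.3% of all genes were called lower and 18.1% higher by limma, so the share of the members called (23.3%) was near the background. The median member difference was -0.58, where the median over all genes tested was -0.09. With the marker averages in the fit, 0 members were called, 0.0462% of all genes were called lower, and the median member difference turned to 0.37, with Ncaph, Nek2, Spc25 and Mad2l1 among the members that changed sign. Endothelial averages did not overlap between melanocyte arrays (3.92 to 4.94) and iHRAS* arrays (6.91 to 8.00). That fit therefore cannot separate marker level from group, and its signs are extrapolated. The 10 were Ncaph, Ccna2, Plk1, Nek2, Nuf2, Spc25, Bub3, Mad2l1, Kif20a and Kif23. Both tumour comparisons used the same melanocyte arrays, so their values are not independent of each other.

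Kif23 was the lowest relative to melanocytes. Its melanocyte signals of 6.58, 7.90, 7.28 and 6.94 all exceeded the highest iHRAS* value of 6.50, with a difference of -1.60 ± 0.47 (limma adjusted p = 0.0151) that is limited by the dim iHRAS* arrays as above. Ccna2 was the other gene without overlap, with 9.50, 11.27, 9.39 and 9.56 in melanocytes against at most 9.16, and it fell 2.16-fold (-1.11 ± 0.32, adjusted p = 0.0131). Of all genes tested, 14.1% lay wholly below melanocytes and 11.2% wholly above. Kif20a fell 2.55-fold (-1.35 ± 0.34, adjusted p = 0.0055) and Plk1, at 7.78, 9.44, 7.67 and 7.46 in melanocytes, 2.24-fold (-1.16 ± 0.35, adjusted p = 0.0157), both with overlap. Cenpe, at 5.37, 6.96, 5.65 and 6.89 in melanocytes, differed by a like amount but was not called (-1.16 ± 0.47, adjusted p = 0.0606). The members nearest to melanocytes or above them were Mki67 (0.21 ± 0.22), Ccnb2 (0.07 ± 0.28), Anln (-0.10 ± 0.30) and Smc4 (-0.12 ± 0.23), and Smc4 read 8.86, 10.01, 9.14 and 10.24 in melanocytes. These 4 were not called, and all of them were among the 12 called higher in iMet tumours. No member was called higher in one tumour model and lower in the other relative to melanocytes.

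**Figure D3:**
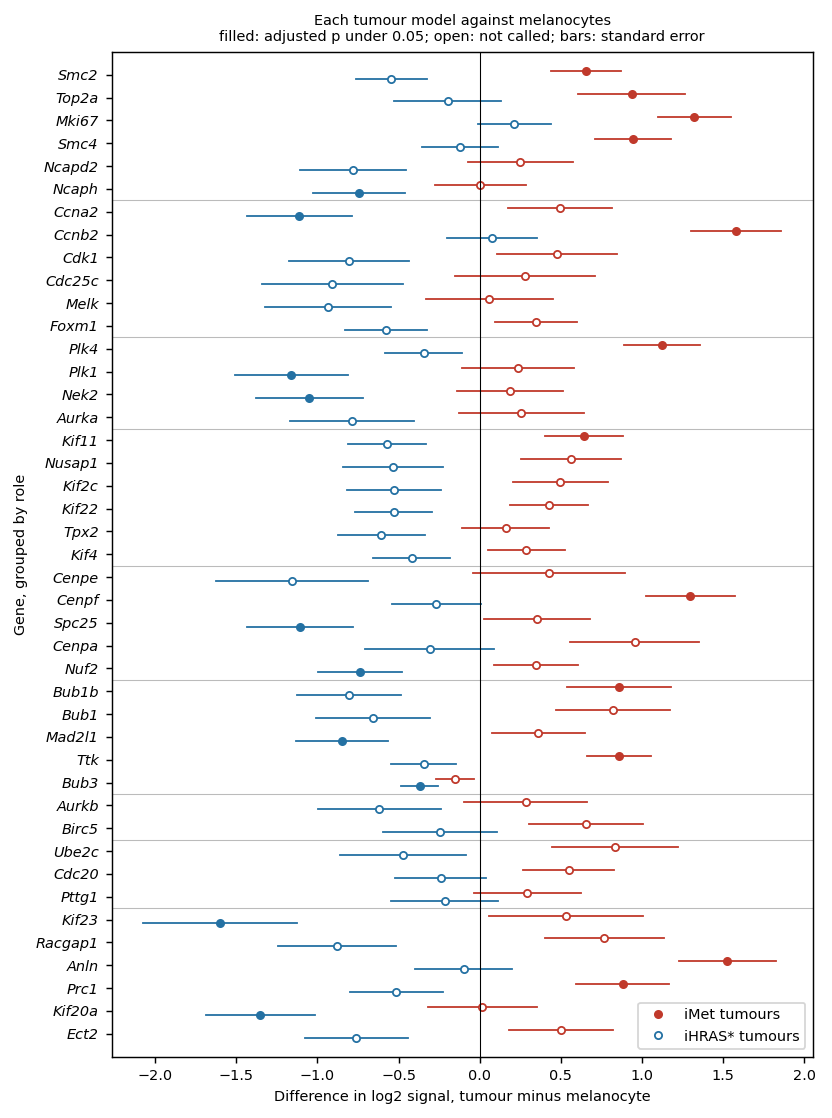
Difference in log2 signal from melanocytes (x axis) for each mitotic gene (y axis, grouped by role) in iMet tumours (red) and iHRAS* tumours (blue), with bars for the standard error and filled symbols for genes called. The 12 filled red symbols lie right of 0 and the 10 filled blue symbols left of it.

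Melanocyte array 2 moved the counts of both comparisons. The mean log2 signal of the 43 genes was 8.05, 9.42, 8.00 and 8.28 on melanocyte arrays 1 to 4, so that array 2 matched the highest iMet array. It was the highest melanocyte array for 42 members, lay above the iMet median for 35 and above every iMet array for 23. On the other 3 melanocyte arrays, all signals were below every iMet array for 32 members. Without melanocyte array 2, 26 members were called higher in iMet tumours, including all 12 called with it, while 13.8% of all genes were called higher, and the median member difference was 0.89. Against iHRAS* tumours only Ccna2 and Kif20a remained called lower without it, where 16.4% of all genes were called lower, and the median member difference was -0.31. Leaving out melanocyte array 1, 3 or 4 or iMet array 1 left 7 calls in iMet tumours each, where 13.7% to 15.4% of all genes were called higher. Leaving out iHRAS* array 3 raised the iHRAS* calls to 23, where 22.7% of all genes were called lower. The median SD of the members was 0.73 among melanocytes, where all genes tested had 0.28. Keratinocyte markers averaged 7.44, 9.24, 6.51 and 9.02 on melanocyte arrays 1 to 4, and fibroblast markers 10.24, 8.60, 11.06 and 7.87. The part of either in the high mitotic level of array 2 was not tested.

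**Figure D4:**
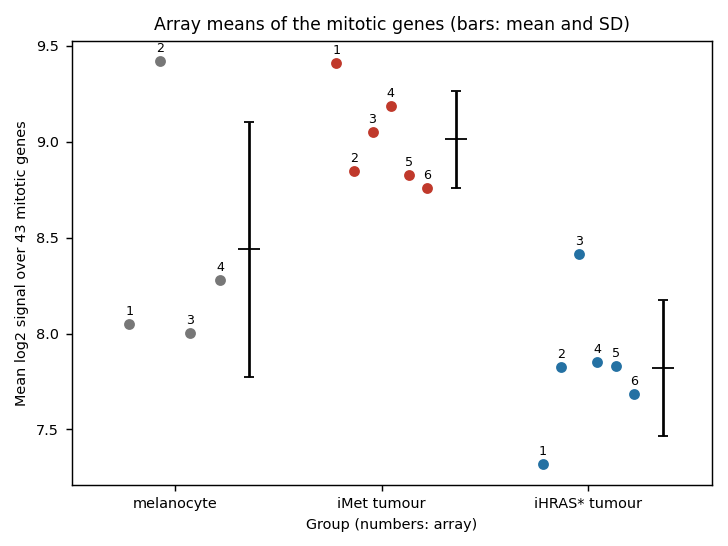
Mean log2 signal over the 43 mitotic genes (y axis) on each array (numbered points) by group (x axis), with the group mean and SD beside them. The 6 iMet arrays lie between 8.76 and 9.41, the 6 iHRAS* arrays between 7.32 and 8.41, and melanocyte array 2, at 9.42, lies apart from the other melanocyte arrays.

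Against melanocytes, 8 of 74 further mitotic genes were called higher and 3 lower in iMet tumours by limma, where 16.4% and 18.7% of all genes were. Those higher included Zwilch, a kinetochore protein (0.76 ± 0.28), Hmmr (0.90 ± 0.22), Cks2 (0.86 ± 0.26), the Cdk1-inhibiting kinase Wee1 (0.70 ± 0.21), Cdc16 (0.51 ± 0.16), and the cytokinesis kinase Rock1 (0.42 ± 0.15). Cit, another cytokinesis kinase, was called too (2.17 ± 0.52), but it lay under the 40th percentile on all 4 melanocyte arrays and above it on 4 of 6 iMet arrays. It thus entered the test mainly through its iMet arrays, and the size is uncertain. The 3 lower were Mis12 of the kinetochore (-0.53 ± 0.16), Mad2l2 (-0.54 ± 0.18) and the gamma-tubulin gene Tubg1 (-0.91 ± 0.27). In iHRAS* tumours 22 of 74 were lower and 2 higher, where 21.3% and 18.1% of all genes were. The lower ones included 6 of 19 other kinetochore genes, with Cenph at -1.78 ± 0.32 and Ndc80 at -1.45 ± 0.30 (both under the 40th percentile on 6 of 6 iHRAS* arrays), and 4 of 16 checkpoint, cohesion and anaphase genes, with Anapc4 at -0.59 ± 0.15 and Cdc23 at -0.78 ± 0.21. Of the spindle and centrosome genes 8 of 19 were lower, among them Kifc1 (-1.09 ± 0.26) and Tubb5 (-0.43 ± 0.11), and of the entry and condensin genes 4 of 15, among them Ncapg (-1.85 ± 0.29) and Ncapg2 (-0.64 ± 0.22). The 2 higher were Numa1, a spindle pole protein (0.36 ± 0.12), and Rock1 (0.57 ± 0.15). DNA replication genes gave 1 higher, Pola1 (0.93 ± 0.22), and 1 lower, Rrm2 (-1.10 ± 0.38), of 26 in iMet tumours, and 9 lower of 26 in iHRAS* tumours, with Rfc4 at -1.93 ± 0.32 and Rrm1 at -1.02 ± 0.19. Rfc4, Ncapg and Kifc1 also had iHRAS* means under the 40th percentile (5.93, 6.03 and 5.91), so the sizes of their falls are uncertain.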

How the data were processed

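RNA was extracted with Trizol and RNeasy columns and labelled by T7 in vitro transcription, per the labels' protocols. The authors deposited log2 signals for 22690 probe sets on 16 arrays, and their summary and scaling methods are not given in those sources. After leaving out 64 control probe sets, the values were quantile-normalized (limma 3.58.1, R 4.3.3). Gene symbols came from the platform annotation, and only probe sets with a single symbol were used. Genes entered a test if brighter than the 40th percentile (log2 6.21) on at least 6 arrays (tumour models) or 4 (melanocyte comparisons). lmFit and eBayes gave two-sided p-values with Benjamini-Hochberg adjustment over all genes tested, called under 0.05. The comparison of models used a fit of the tumour arrays, and the melanocyte comparisons a fit of all 16. The script was tested on simulated data.

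The members and lists were chosen with earlier results of these data known. Genes given in full were, in each role, the largest and smallest difference between models, members not called, and the 4 largest and 4 smallest differences from melanocytes in each model; of each further list, the 2 with the smallest p and up to 2 called against the list's main direction. The number of arrays limits the precision. Alternatives covered scaling, dim filter, probe set choice, variance trend, arrays left out, replicate block, marker covariates and the groups in the fit.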

Additional observations from a re-analysis of the deposited data

Results flagged for a closer look

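Among 132 sets of values, 129 of 1 gene in 1 group and 3 of the array means in a group, 13 held an array far from the rest by Dixon's gap ratio, which chance alone gives in about 1 set in 20. Melanocyte array 2 was the high one in 9: Ccna2 at log2 11.27, Aurka 10.18, Plk1 9.44, Plk4 8.65, Kif4 8.35, Spc25 8.22, Bub1b 9.38, Cdc20 11.00 and Prc1 10.09. On iMet array 1, Kif4 at 8.73 and Cdc20 at 10.94 stood above the other iMet arrays. On iHRAS* array 1, Ccna2 at 8.06 and Cdc20 at 8.98 stood below the other iHRAS* arrays. The 9 melanocyte values come from 1 array and are not independent of each other.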

How the results depend on the processing

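Between the tumour models, 27 of the 40 calls were kept under all 22 alternatives other than the marker covariates, under which 5 members and 4 of the further mitotic genes were called. On the values as deposited, 54 further genes were called, with an all-gene median of 0.23 and 80.1% of all calls higher, against 53.6%. Leaving out 1 array gave 37 to 41 member calls, 28 to 44 for the further genes and medians of 1.09 to 1.34, where 8.08% to 12.1% of all genes were called higher. With the largest-variance probe set, Nusap1 was -0.75 and Bub1 -0.17, untested for dimness. Kif23, untested on its other probe sets, kept its direction.

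For iMet against melanocytes, member calls numbered 7 with arrays centred on their median, 7 with the largest-variance probe set, 0 with covariates (median 1.64), 4 without melanocyte arrays 1 and 3 (median 0.11) and 24 without arrays 2 and 4 (median 0.98). The further genes gave 6, 0 and 2 calls with centring, covariates and without arrays 1 and 3. As above, the covariate fits against melanocytes cannot separate marker level from group. Leaving out 1 array gave 7 to 26 member calls, 6 to 14 for the further genes and medians of 0.33 to 0.89, where 13.7% to 17.2% of all genes were called higher.

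For iHRAS* against melanocytes, member calls numbered 16 as deposited, 17 centred, 0 with covariates (median 0.37, with Ncaph at 0.18, Nek2 0.31, Spc25 0.42 and Mad2l1 0.49 also turning), 21 without melanocyte arrays 1 and 3, 1 without arrays 2 and 4, 5 without iHRAS* arrays 5 and 6, and 5 with those 2 groups alone fitted. Of all genes, 27.9% were called lower as deposited and 29.7% centred, against 21.3% in the main fit. The share was 17.4% without melanocyte arrays 1 and 3 and 12.3% without arrays 2 and 4. It was 17.3% without iHRAS* arrays 5 and 6 and 17.8% with those 2 groups alone. The further genes gave 0 with covariates, 6 without arrays 2 and 4, and 14 with those 2 groups alone. Leaving out 1 array gave 2 to 23 member calls, 13 to 37 for the further genes and medians of -0.71 to -0.31, where 16.4% to 22.7% of all genes were called lower. Of all calls, higher ones made up 46.6% for iMet and 46.0% for iHRAS*, but 33.7% and 34.2% with centring, and 35.6% for iHRAS* as deposited.

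Replicate numbers did not pair the arrays: same-numbered deviations correlated at -0.23 to 0.14 between the models, and at -0.06 to 0.08 with melanocytes. With the replicate block, member calls were 36, 7 and 2 in the 3 comparisons, and further genes 6 and 13 against melanocytes. Of all genes, 7.71% were then called higher in iMet than in iHRAS* tumours. Against melanocytes, 13.7% were called higher in iMet tumours and 17.2% lower in iHRAS* tumours. The cause of these changes was not tested. Signals under the 40th percentile kept Cdc25c and several second probe sets from the test, and limited Kif23, Cenpe, Nek2 and further genes in iHRAS* tumours, and Cit in melanocytes.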
